A study of Mus musculus with 5 samples.

Results

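The genes described here are those of the cytosolic ribosomal proteins, measured in dendritic cells with and without the transcription factor gene Etv3. They were chosen by name alone: every gene symbol of the expression table that has the form of a ribosomal protein of the large subunit (Rpl) or the small subunit (Rps), including Rplp0 to Rplp2, and neither a pseudogene suffix nor the name of a ribosomal protein kinase. The rule took 88 of 27678 symbols, 53 of the large subunit and 35 of the small subunit. Of these, 76 are the standard genes of mouse ribosomal proteins, 46 large and 30 small, called core genes below. The other 12 carry an added letter or number that marks a paralogue or a retrotransposed copy: Rpl3l, Rpl6l, Rpl7l1, Rpl10l, Rpl22l1, Rpl32l, Rpl39l, Rps3a2, Rps3a3, Rps4l, Rps12l1 and Rps27l. No measured value entered the name rule, but this group of genes was chosen with earlier results of these data known.

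The libraries came from 2 groups. Etv3+/+ (2 libraries, called control below) and Etv3-/- (3 libraries, called knockout below, as labelled) were dendritic cells grown from mouse bone marrow for 6 days with GM-CSF and IL-4 and sorted as live single cells with CD11c, high MHC class II, intermediate CD11b and no CD115. Both genotypes thus share the cytokines and the sort, and a culture of this kind holds macrophage-like as well as dendritic cells before sorting. The labels give no age, strain or sex, do not describe the deleted part of Etv3, and are silent on whether the replicates of a genotype were separate mice or cultures. The p-values therefore reflect differences among these 5 libraries, part of which may be technical. Values are normalized counts, read counts divided by a factor for each library.

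The ribosome is built from ribosomal RNA and one copy each of most ribosomal proteins, so the messages of these genes are produced in concert across cell types. Most of their mRNAs begin with a terminal oligopyrimidine tract, a C followed by a run of C and T letters (called TOP), through which the mTOR pathway and the protein Larp1 adjust their translation and stability. ETS-family factors, to which Etv3 belongs, bind DNA around the letters GGAA, and such letters are common near the start sites of ribosomal protein genes. Dendritic cells are known to change their protein synthesis as they mature.

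The start sites illustrate these features. Of the 88 genes, 63 had a promoter in RefSeq's table for GRCm38.p6, 56 of them core genes. In the windows shown, 15 bases lie before the annotated start and 15 after it, 5′ to 3′ on the gene's strand, and capitals mark the run of C and T letters at or next to the start. They show Rps6, the substrate of S6 kinases, a gene and its paralogue that differed in these libraries (Rps27 and Rps27l), and 3 further genes with a long run.
Rps6, chr4:86857353-86857382, minus strand: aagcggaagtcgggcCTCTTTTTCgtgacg
Rps27, chr3:90213634-90213663, minus strand: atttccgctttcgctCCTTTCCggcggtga
Rps27l, chr9:66946071-66946100, plus strand: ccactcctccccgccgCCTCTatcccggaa
Rpl28, chr7:4792950-4792979, plus strand: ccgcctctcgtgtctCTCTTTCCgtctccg
Rpl35, chr2:39005117-39005146, minus strand: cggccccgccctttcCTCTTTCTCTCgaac
Rps18, chr17:33955651-33955680, minus strand: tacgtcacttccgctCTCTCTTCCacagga
The run of Rps27l is shorter than that of Rps27 and begins 1 base after the annotated start.

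A run of at least 5 C and T letters that opened with C exactly at an annotated start was found in 13 of 56 core genes (23.2%), against 2.98% of the 10631 tested genes with a promoter and 0 of 69 mitochondrial ribosomal protein genes. With the start of the run allowed within 5 bases of the annotated start, the shares were 48.2% of core genes, 23.9% of tested genes and 24.6% of mitochondrial ribosomal protein genes. The ETS-type letters CCGGAAG, on either strand between 250 bases before and 50 after the start, were in a promoter of 23 of 56 core genes (41.1%), of 37.7% of mitochondrial ribosomal protein genes, of 19.7% of tested genes and of 9.93% of all genes of the promoter table. The letters TGACGTC, as bound by CREB-type factors, were found for 10.7% of core genes against 6.06% of tested genes. The letters AAGATGG, as bound by YY1, were found for 16.1% against 8.28%. A gene with several annotated starts counted once. These matches describe letters in a window and not sites of binding.

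The 100 bases before the start show where the ETS-type letters, in capitals, stood in 3 small subunit genes that carry them.
Rps6, chr4:86857368-86857467, minus strand: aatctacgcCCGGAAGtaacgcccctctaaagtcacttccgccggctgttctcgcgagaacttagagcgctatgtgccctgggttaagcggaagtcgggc
Rps7, chr12:28635954-28636053, minus strand: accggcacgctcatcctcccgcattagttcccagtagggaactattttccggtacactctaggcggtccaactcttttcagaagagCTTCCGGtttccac
Rps3a1, chr3:86142669-86142768, minus strand: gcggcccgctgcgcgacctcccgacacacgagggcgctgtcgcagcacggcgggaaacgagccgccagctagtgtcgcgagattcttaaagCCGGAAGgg
The 23 core genes with these letters had a median log2 fold change (knockout over control) of 0.46, and the 33 without them 0.50. Values of the genotypes did not overlap, with the knockout higher, in 8 of the 23 and in 17 of the 33. The 27 core genes with a C and T run within 5 bases of the start had a median of 0.46, and the 29 without one 0.49. In 10 of the 27 and 15 of the 29 the knockout was higher in every library. For a run exactly at the start, the median was 0.40 in the 13 with it and 0.49 in the 43 without it. Of these, 4 of the 13 and 21 of the 43 were higher in every knockout library. Of the 6 core genes with the CREB-type letters 5 were higher in every knockout library, and of the 50 without them 20. Of the 9 with the YY1-type letters 4 were so, and of the 47 without them 21, where 16.7% of all tested genes were.

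Facts of the whole series bear on the reading. Recovered depth was 42983550 to 68253936 reads per library, and the share of mitochondrial transcripts was 1.10% to 6.64%, highest in control replicate 2. Etv3 itself had 23050 and 25447 normalized counts in the control and 18691, 20416 and 22856 in the knockout (log2 fold change -0.23, limma adjusted p = 0.567). A gene total does not check the knockout, since the deleted part is not given. The deviation of each gene from its mean followed GC content in 2 libraries, with a Spearman correlation across genes of -0.42 in control replicate 2 and 0.40 in knockout replicate 3, against -0.10 to 0.09 in the other 3. Dendritic cell markers were present in every library, with summed levels of 1647660 and 1249760 in the control and 2437950 to 3251230 in the knockout. Of these 14 markers limma called 1 higher (Ciita), where it called 0.876% of all tested genes higher. The erythroid list of 7 summed to 81.1 and 16.3 normalized counts against 26.9, 49.5 and 14.9, with 3 of its genes, Alas2 and Hba-a2 among them, at 0 throughout.

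Ribosomal protein transcripts took a small and variable share of each library. All 88 genes together made up 1.54% and 2.02% of normalized counts in control replicates 1 and 2, and 2.86%, 2.10% and 2.71% in knockout replicates 1, 2 and 3. Control replicate 1 was the lowest, and the knockout libraries were all higher than both controls, but knockout replicate 2 lay only just above control replicate 2. Large subunit genes took 0.845% and 1.08% in the control and 1.53%, 1.14% and 1.45% in the knockout. Small subunit genes took 0.694% and 0.935% in the control and 1.32%, 0.961% and 1.27% in the knockout. The subunits moved together: the ratio of summed large to summed small subunit counts was 1.22 and 1.16 in the control and 1.16, 1.19 and 1.14 in the knockout, which overlap. With mitochondrial transcripts left out of the total the shares were 1.57% and 2.16% in the control and 2.93%, 2.17% and 2.74% in the knockout, which leaves control replicate 2 and knockout replicate 2 level. In bulk samples, a different mixture of cells and a different amount of RNA per cell cannot be told apart.

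No ribosomal protein gene passed the test. Of the 88 genes, 86 reached a normalized count of 10 in at least 2 libraries and were tested, 52 large and 34 small, while Rpl10l and Rps12l1 had 0 reads in all 5 libraries. With limma on log2(normalized count + 1) and Benjamini-Hochberg adjustment over 13813 genes, 0 of the 86 were called higher and 0 lower at an adjusted p under 0.05, where 0.876% of all tested genes were called higher and 0.319% lower. At an unadjusted p under 0.05, 25 of the 86 were higher in the knockout (8.02% of all tested genes) and 1 was lower (9.93%). edgeR's quasi-likelihood test on the recovered reads called 0 of them in either direction (0.825% and 0.319% of all genes). DESeq2 on the same reads called 7 large and 3 small subunit genes higher (4.6% of all genes) and 1 small subunit gene lower (3.86%). Those higher included Rpl3, Rpl8, Rpl13, Rpl18, Rpl32, Rpl36, Rps3, Rps14 and Rps18, and the one lower was Rps27l. The genes it called were chosen for mention after their values were seen.

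The fold changes leaned one way. The median log2 fold change was 0.50 over the 86 tested genes, 0.51 for the large subunit and 0.49 for the small subunit, against -0.06 over all tested genes. It was positive in 76 and negative in 10. All 30 core genes of the small subunit had positive values, from 0.06 to 0.83, as did 40 of the 46 core genes of the large subunit. In 41 of the 86 (47.7%) each knockout library exceeded both controls, where 16.7% of all tested genes did so, and in 2 (Rps27l and Rpl39l) each knockout library was below both, where 19.3% did. The 41 comprised 27 of 52 large and 14 of 34 small subunit genes. Leaving out control replicate 1 moved the median to 0.24 (0.29 large, 0.12 small), and leaving out control replicate 2 moved it to 0.79.

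The counts of genes without overlap moved with the library left out. Without control replicate 1, 42 of the 86 were higher in every remaining knockout library (31.4% of all tested genes) and 17 lower (35.6%), and without control replicate 2 there were 77 higher (26.6%) and 2 lower (33.4%). The 17 included Rpl5, Rpl12, Rpl39, Rps7, Rps24, Rps27a and Rps27l. Leaving out knockout replicate 1, 2 or 3 gave 42, 59 or 41 higher (21.7%, 22.6% and 20.8% of all tested genes) and 3, 2 or 3 lower (24.0%, 26.1% and 24.0%). Without control replicate 2 and knockout replicate 3, the libraries that followed GC content most, 78 were higher (34.1%) and 3 lower (40.1%).

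**Figure D1:**
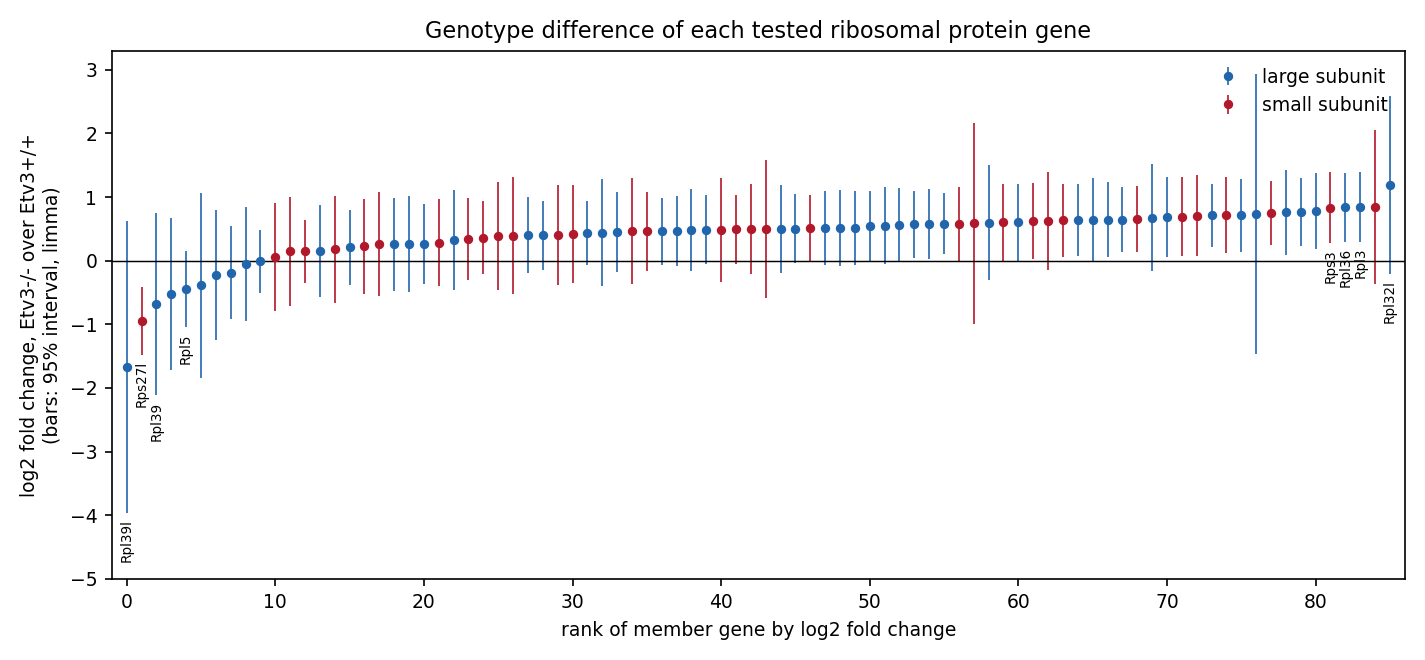
Log2 fold change (knockout over control, y axis) of the 86 tested ribosomal protein genes in order of size (x axis, with 8 genes named), with 95% intervals from limma as bars, large subunit in blue and small subunit in red. Most points lie above 0 with intervals that cross it, 25 intervals of core genes lie wholly above 0, and Rps27l alone has an interval wholly below 0.

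Levels differed between libraries of one genotype as well as between genotypes. Over the 76 core genes, the median deviation from the gene's mean over 5 libraries, on the log2 scale, was -0.62 and -0.06 in control replicates 1 and 2, and 0.37, -0.10 and 0.31 in knockout replicates 1, 2 and 3. Control replicate 1 was the lowest of the 5 libraries in 75 of the 86 tested genes, where it was lowest in 2760 of all 13813 (20.0%). Knockout replicate 2 was the lowest of its group in 78 of the 86. The 2 controls differed from each other by a median of 0.56 on the log2 scale over core genes, with replicate 2 higher in 73 of 76. Control replicate 2 and knockout replicate 2 differed by a median of -0.01 (knockout minus control), with the knockout higher in 37 of 76. Against control replicate 1, knockout replicate 2 was higher in 72 of the 76 and knockout replicate 1 in all 76. Among the 52 members chosen for naming, the sign of the log2 fold change turned in at least 1 of 25 alternatives for 24 and in none for 28. Rpl39l and Rpl6l, both among the 28, had values in 24 of the 25.

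**Figure D2:**
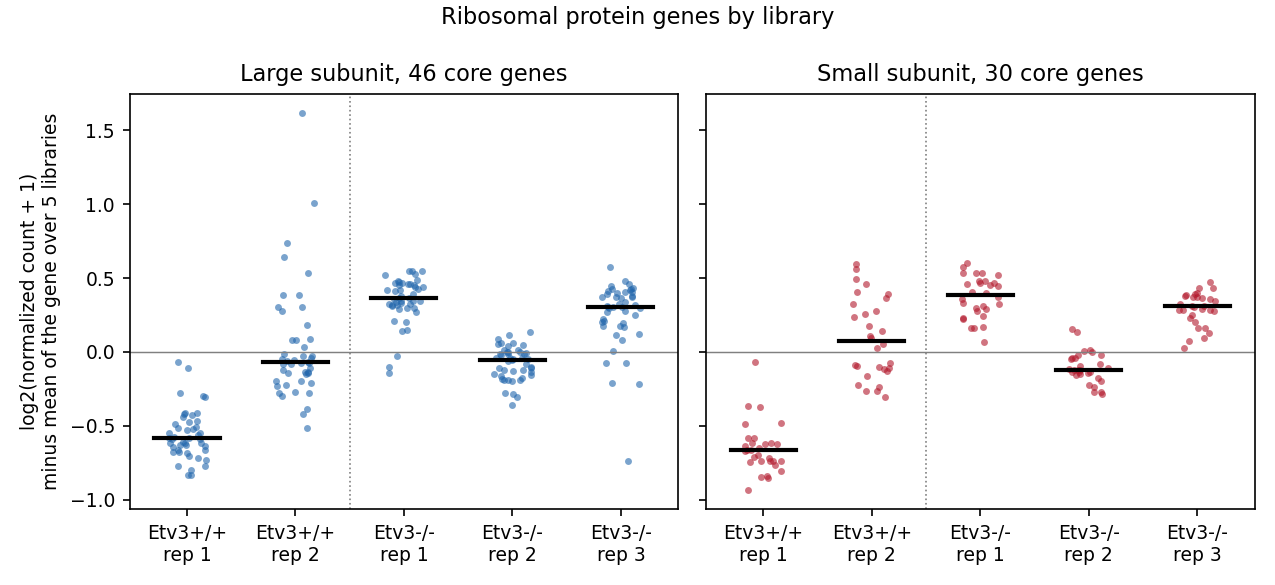
Deviation of each core ribosomal protein gene from its mean over the 5 libraries, log2(normalized count + 1) (y axis), by library (x axis), with 46 large subunit genes on the left and 30 small subunit genes on the right and black bars for medians. Control replicate 1 lies below the others in both panels, knockout replicates 1 and 3 lie highest, and control replicate 2 and knockout replicate 2 lie between, with wide scatter in control replicate 2.

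The order of the genes within a library changed less. Across the 76 core genes the Spearman correlation of levels between any 2 libraries lay between 0.88 and 0.985, as a description with no test, since all libraries share gene length and mapping. The spread of the differences was widest in pairs with control replicate 2: the SD of the log2 difference was 0.42 to 0.50 in its 4 pairs and 0.14 to 0.28 in the other 6.

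Per kilobase of annotated transcript, the 8 highest levels included those of Rps27, Rps14, Rps19, Rpl41, Rpl4 and Rps3, from 91045 normalized counts per kb for Rps27 down to 43608 for Rps3 as means of all 5 libraries. Rps19, whose loss of 1 copy underlies Diamond-Blackfan anaemia, a failure of red cell production, had 37236 and 41128 normalized counts in the control and 63559, 44874 and 58329 in the knockout (log2 fold change 0.49, 95% interval -0.06 to 1.04). Rpl4, a large protein that lines the peptide exit tunnel, had 54558 and 57344 against 83307, 69092 and 75222 (0.44, -0.07 to 0.95). In both the groups did not overlap, and the lowest knockout library was replicate 2.

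Rps14, the small subunit gene tied to the anaemia of human 5q deletion, had 31634 and 35820 normalized counts in the control and 58142, 44444 and 57436 in the knockout. Rpl41, which encodes the shortest ribosomal protein, had 16455 and 21679 against 30319, 23080 and 32036. For these genes the knockout was higher in every library, with log2 fold changes of 0.65 and 0.58 and limma adjusted p of 0.199 and 0.260. The lowest core gene per kilobase was Rpl24, at 629 normalized counts per kb, although ribosomes hold their proteins in near-equal numbers. It was singled out after its value was seen. Its locus overlaps the gene Gm28037 on the same strand, and 81.7% of the 50-base stretches of its annotated transcript also occur in other genes. Such levels rest on the annotated length, which is uncertain for genes such as Rps15a and Rps20 with long annotated transcripts. They also rest on how reads shared with pseudogenes or overlapping genes were counted.

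The acidic stalk, which recruits the translation factors that hydrolyse GTP, comprises the base protein Rplp0 and its partners Rplp1 and Rplp2, next to Rpl12. Rplp0 had 23840 and 30896 normalized counts in the control and 41878, 33168 and 44717 in the knockout (log2 fold change 0.55, 95% interval 0.00 to 1.09). Rplp1 and Rplp2 had log2 fold changes of 0.51 and 0.51, and in both the knockout was higher in every library. For Rplp1 the margin was small, with 7896 in control replicate 2 and 7901 in knockout replicate 2. Rpl12 differed from its neighbours, with 6287 and 11250 in the control and 9887, 6068 and 6726 in the knockout (-0.19, -0.92 to 0.55). Its highest library was control replicate 2, and its groups overlapped.

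The 5S particle is formed by Rpl5 and Rpl11 with 5S ribosomal RNA, and outside the ribosome it binds Mdm2 and so stabilises p53. Rpl11 had 3807 and 5891 normalized counts in the control and 8391, 5922 and 7475 in the knockout (log2 fold change 0.60, 95% interval -0.01 to 1.21). Rpl5 had 6608 and 11085 in the control and 6970, 5840 and 6113 in the knockout (-0.44, -1.04 to 0.15). Rpl11 was thus higher in every knockout library, while the values of Rpl5 overlapped. The difference between the genes was not tested. Their transcripts also differ in GC content, 42.7% for Rpl5 and 52.9% for Rpl11.

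Around the peptide exit tunnel, where the growing chain leaves the large subunit, the listed genes were Rpl4, Rpl17, Rpl19, Rpl23a, Rpl26, Rpl31, Rpl35, Rpl39 and the testis paralogue Rpl39l. Their median log2 fold change was 0.32, with Rpl4, Rpl19 and Rpl23a higher in every knockout library and Rpl39l lower. Rpl39, one of the smallest ribosomal proteins, had 5805 and 30914 normalized counts in the control and 9407, 10180 and 6042 in the knockout (-0.68, -2.12 to 0.75). Control replicate 2 was 5.32-fold above control replicate 1, and all 3 knockout libraries exceeded control replicate 1. Without control replicate 2 the log2 fold change was 0.52. Rpl35 had 7762 and 8581 against 8984, 6703 and 8831, a log2 fold change of -0.01 whose sign turned under other scalings. Rpl17, Rpl26 and Rpl31 had log2 fold changes of 0.26, 0.48 and 0.32 with overlapping groups.

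At the decoding centre and the mRNA entry channel of the small subunit sit Rps2, Rps3, Rps15, Rps23 and Rps27a, the last made as a fusion with ubiquitin. Rps3, which also acts in DNA repair and binds NF-κB subunits, had 23763 and 33102 normalized counts in the control and 55391, 43612 and 51709 in the knockout. Its knockout libraries were all above both controls (log2 fold change 0.83, 95% interval 0.28 to 1.39, limma adjusted p = 0.141). Rps2 had 15785 and 22812 against 37042, 25505 and 31926 (0.71, 0.12 to 1.31), again without overlap. Rps15 had a log2 fold change of 0.71 with no overlap, and Rps23 and Rps27a had 0.34 and 0.26 with overlapping groups.

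The 6 highest log2 fold changes were those of Rpl32l, Rps3a2, Rpl3, Rpl36, Rps3 and Rpl13a. Rpl3, which shapes the peptidyl transferase centre, had 10038 and 11889 normalized counts in the control and 22677, 15427 and 21719 in the knockout (log2 fold change 0.85, 95% interval 0.30 to 1.40, limma adjusted p = 0.133). Rpl36, a small protein of the large subunit, had 4832 and 7041 against 11597, 9092 and 10758 (0.84, 0.29 to 1.38, adjusted p = 0.135). Rpl13a, known as part of a complex that silences translation of inflammatory mRNAs in interferon-treated myeloid cells, had 1122 and 1053 against 2194, 1562 and 1898 (0.78, 0.18 to 1.38, adjusted p = 0.190). In each the knockout libraries all exceeded the controls and replicate 2 was the lowest of them. Rpl13a hosts 4 small nucleolar RNAs in its introns.

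Rpl32l and Rps3a2 are annotated as processed pseudogenes, so their reads may belong to the genes they copy. Rpl32l had 82.0 and 95.0 normalized counts in the control and 340, 173 and 142 in the knockout, and Rps3a2 had 96.9 and 120 against 216, 167 and 204. The knockout was higher in every library for both. As a share of Rpl32, Rpl32l was 0.408% and 0.402% in the control and 0.949%, 0.607% and 0.365% in the knockout, which overlap. Rps3a2 was 0.700% and 0.467% of Rps3a1 in the control and 0.910%, 0.864% and 0.775% in the knockout.

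Genes with known roles in control beyond the ribosome also leaned upward. Rps6, whose phosphorylation is used to read mTOR activity, had 5555 and 8100 normalized counts in the control and 9556, 7053 and 9518 in the knockout (log2 fold change 0.36, 95% interval -0.22 to 0.94), and the groups overlapped. Rpl38, required for translation of Hox mRNAs in the embryo, had 2040 and 2598 against 4179, 3012 and 3690 (0.64, 0.08 to 1.20), and Rpl10a had a log2 fold change of 0.64, both higher in every knockout library. Rps25, used by viral internal ribosome entry sites, had 15345 and 14912 against 20127, 14260 and 16403 (0.15, -0.35 to 0.65). Its groups overlapped, and control replicate 1 lay above control replicate 2.

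The 10 genes linked to Diamond-Blackfan anaemia or 5q deletion, among them Rpl5, Rpl11, Rpl35a, Rps7, Rps10, Rps14, Rps19, Rps24 and Rps26, had a median log2 fold change of 0.46. Rpl11, Rps14 and Rps19 were higher in every knockout library. Rps10 and Rps26 had log2 fold changes of 0.46 and 0.46, and Rps7, Rps24 and Rpl35a had 0.23, 0.18 and 0.15, all with overlapping groups. Control replicate 2 was the highest library for Rps24, with 10882 normalized counts, where the knockout had 8652, 6406 and 9587 and control replicate 1 had 4719.

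The paralogue Rps27l went against the group. Rps27l encodes a near-copy of the small subunit protein Rps27 and is known as a p53-inducible gene. It had 22656 and 33925 normalized counts in the control and 14247, 15215 and 13811 in the knockout, a mean of 28290 ± 7969 (SD, n = 2) against 14424 ± 719 (SD, n = 3). All 3 knockout libraries lay close together and below both controls. The log2 fold change was -0.94 (95% interval -1.48 to -0.41), with a limma adjusted p of 0.103, the smallest among the 86. It was called lower by DESeq2 (adjusted p = 0.00483) and after correction for GC content and length (limma adjusted p = 0.0385, log2 fold change -0.75), which called 0 members higher and 1 lower (1.59% and 1.08% of all tested genes), and over all alternatives its adjusted p ranged from 0.00483 to 0.317 with a negative value in each.

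Rps27, the parent gene, had 18051 and 28229 normalized counts in the control and 41628, 29681 and 39465 in the knockout (log2 fold change 0.69, 95% interval 0.07 to 1.32, limma adjusted p = 0.239). Rps27l was therefore 126% and 120% of Rps27 in the control and 34.2%, 51.3% and 35.0% in the knockout, with no overlap. The sum of both genes was 40707 and 62154 in the control and 55875, 44896 and 53276 in the knockout, which overlap. Of the 50-base words in annotated transcripts, 22.4% for Rps27l and 64.0% for Rps27 also occur in transcripts of another gene. The ratio was not tested, since it was noticed in these values.

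**Figure D3:**
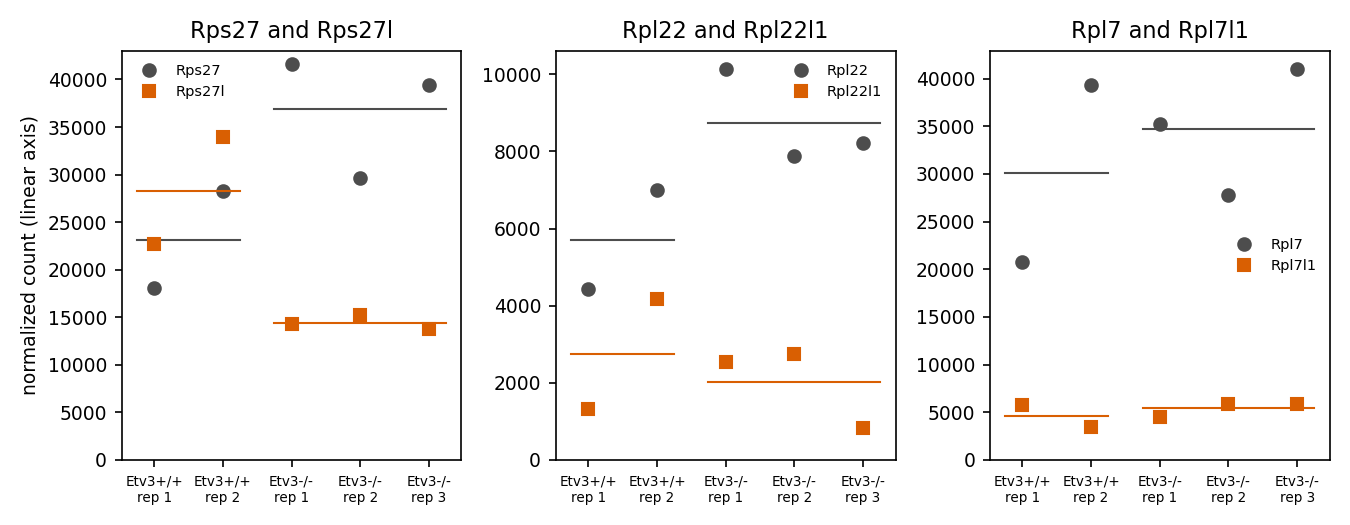
Normalized counts (y axis, linear from 0) of 3 ribosomal protein genes (grey circles) and their paralogues (orange squares) in the 5 libraries (x axis), with lines for group means. In these counts, which are not divided by transcript length, Rps27l lies above Rps27 in both controls and below it in all 3 knockout libraries. Rpl22l1 and Rpl7l1 stay below their parents with overlapping groups.

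The other paralogues varied without a common direction. Rpl22l1, whose protein can replace Rpl22 and has roles of its own in blood cell development, had 1318 and 4167 normalized counts in the control and 2528, 2747 and 824 in the knockout (log2 fold change -0.39, 95% interval -1.85 to 1.07). Its values overlapped widely, and its sign turned under several alternatives. Rpl22 itself had 4425 and 7003 against 10145, 7892 and 8214 (0.64, 0.05 to 1.23). Rpl7l1, a relative of Rpl7 with a role in assembly of the large subunit, had 5780 and 3461 against 4526, 5847 and 5892 (0.27), while Rpl7 had 20766 and 39379 against 35266, 27789 and 41046 (0.26).

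Rpl39l, expressed chiefly in testis, had 63.4 and 47.9 normalized counts in the control and 8.61, 22.3 and 23.7 in the knockout, which rest on 68 and 56 against 8, 18 and 27 reads. The knockout was lower in every library (log2 fold change -1.67, 95% interval -3.96 to 0.63). Rpl3l, the muscle form of Rpl3, had 184 and 262 against 148, 126 and 189 (-0.52), with overlap. As a share of Rpl3, Rpl3l was 1.83% and 2.20% in the control and 0.655%, 0.819% and 0.868% in the knockout. Rps4l, annotated as a transcribed processed pseudogene, had 233 and 495 against 439, 390 and 648, and Rps4x, the parent, 8015 and 15774 against 16508, 11474 and 18129, both with overlap. The 5 lowest tested levels per kilobase were those of Rpl6l, Rpl39l, Rps3a3, Rpl3l and Rps3a2, from 32.0 to 203 normalized counts per kb. Rpl6l had 18.6 and 19.7 normalized counts against 44.1, 23.5 and 33.3, and Rps3a3 had 44.7 and 75.3 against 85.0, 80.5 and 99.1. Both are annotated as processed pseudogenes, like Rpl32l and Rps3a2, and both were higher in every knockout library. The values of Rpl6l rest on 20 and 23 against 41, 19 and 38 reads. Rpl10l, the testis form of Rpl10, was at 0 in all libraries, while Rpl10 had 11397 and 19408 against 24535, 16021 and 23686 (0.50).

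GC content moved with these differences among the members. The Spearman correlation of the log2 fold change with the GC content of the annotated transcript was 0.50 across the 76 core genes, and that of the difference between the controls (replicate 2 minus replicate 1) was -0.53, given as descriptions since the genes share libraries. With the 76 genes in 4 bins of 19 by GC content, the median log2 fold change was 0.34, 0.49, 0.52 and 0.64 from lowest to highest GC. The number higher in every knockout library was 4, 7, 10 and 16. The median difference between the controls was 0.89, 0.66, 0.51 and 0.45 in the same order. Against control replicate 1 alone, the log2 difference of the knockout mean had a correlation with GC content of 0.07. The part of GC content in the genotype difference was not tested beyond a correction for GC content and length, after which the medians were 0.32 for the large and 0.34 for the small subunit. With that correction and without control replicate 1 they were 0.06 and 0.02.

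**Figure D4:**
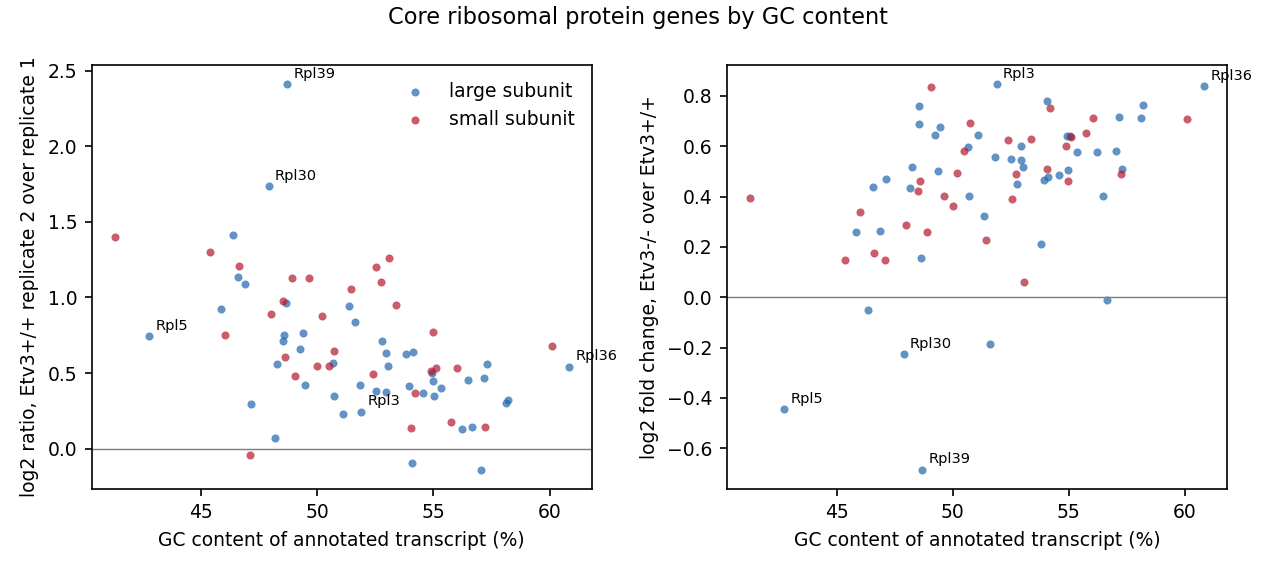
GC content of the annotated transcript (x axis, %) against the log2 ratio of control replicate 2 over control replicate 1 (left) and the log2 fold change of knockout over control (right) for 76 core genes, large subunit in blue and small in red. The ratio between the controls falls with GC content and the genotype fold change rises with it, with Rpl39, Rpl30 and Rpl5 at the low end of the right panel.

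The core genes with negative fold changes were Rpl39, Rpl5, Rpl30, Rpl12, Rpl23 and Rpl35, all of the large subunit. Rpl30 and Rpl23 were named for this sign after their values were seen. Rpl30, which also binds its own pre-mRNA in yeast, had 5247 and 17489 normalized counts in the control and 7886, 7949 and 8746 in the knockout (log2 fold change -0.23). Rpl23, which like Rpl5 and Rpl11 can bind Mdm2, had 5996 and 15963 against 10993, 8393 and 9100 (-0.05). In both, control replicate 2 stood above all other libraries and control replicate 1 below them. Over these 6 genes the 95% intervals all included 0.

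Reads of ribosomal protein genes are uncertain because of their copies. Of the 50-base words in annotated transcripts of the core genes, a median of 59.3% (0% to 95.1%) also occurred in transcripts of other genes. The 48 genes with over 50% shared had a median log2 fold change of 0.49 and 23 higher in every knockout library, and the 28 with at most 50% had 0.51 and 14. The 5 with at most 10% shared, among them Rps3, Rps20, Rpl8 and Rpl22, had a median of 0.64, and 4 of the 5 were higher in every knockout library. Among 319 rows named as ribosomal protein pseudogenes, 134 were tested, and their median was 0.70 with 0 called by limma. At an unadjusted p under 0.05, 9 were higher and 0 lower, where 8.02% and 9.93% of all tested genes were. In 61 (45.5%) each knockout library exceeded both controls, and in 3 (2.24%) each was below both. Over all tested genes these shares were 16.7% and 19.3%. In 25 of the 88 genes the locus overlaps a gene on the other strand and in 29 it holds a small nucleolar RNA. Some overlap another gene on the same strand, such as Rpl13a with Gm45713 and Rps10 with RPS10-NUDT3. The strand setting of the counting is not given in the sources used here.

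Another 5 ribosomal proteins lie outside the name rule. Rpsa, the laminin receptor protein of the small subunit, had 30126 and 52311 normalized counts in the control and 80056, 59930 and 69730 in the knockout (log2 fold change 0.81, limma adjusted p = 0.214). Rack1, a scaffold on the small subunit, had 18427 and 19278 against 26453, 19099 and 23456. The list of 5, which also holds Fau and Rpl36al, had a median of 0.60, all positive, with 0 called by limma. In it 2 were higher at an unadjusted p under 0.05 (8.02% of all tested genes) and 3 were higher in every knockout library (16.7%).

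Genes of related function were compared by count and median, with no limma call in any of these lists. Over all tested genes 16.7% were higher and 19.3% lower in every knockout library, and 8.02% and 9.93% were so at an unadjusted p under 0.05. The 20 elongation factors and other genes with TOP mRNAs had a median log2 fold change of 0.34, with 10 higher in every knockout library and 1 lower, and with 8 higher and 1 lower at an unadjusted p under 0.05. Their most abundant members were Eef1a1, which delivers aminoacyl-tRNA, and Npm1, a nucleolar chaperone. Eef1a1 had 106003 and 154276 normalized counts in the control and 238492, 186588 and 215957 in the knockout (0.73). Npm1 had 37432 and 108165 against 62401, 72982 and 32072, with control replicate 2 highest. The 26 initiation factors had a median of 0.08 and 3 genes each way at an unadjusted p under 0.05. In 10 of the 26 (38.5%) each knockout library exceeded both controls, and in 3 (11.5%) each was below both. Eif4g2 had 66228 and 89327 normalized counts against 38674, 59515 and 33432, and Eif1 had 53814 and 71216 against 59419, 51401 and 54451.

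Ribosome production in the nucleolus and the mitochondrial ribosome showed smaller medians. The 46 biogenesis genes had a median log2 fold change of 0.19, with 18 (39.1%) higher in every knockout library and 1 (2.17%) lower, where 16.7% and 19.3% of all tested genes were. At an unadjusted p under 0.05, 3 were higher and 1 lower, where 8.02% and 9.93% of all tested genes were. Their members of highest mean, Npm1 and Ncl (nucleolin), had their highest value in control replicate 2. Ncl had 14903 and 23359 normalized counts against 15603, 18534 and 15097. The 81 tested mitochondrial ribosomal protein genes had a median of 0.13, with 20 (24.7%) higher in every knockout library, 8 (9.88%) lower, and 2 and 4 at an unadjusted p under 0.05. Control replicate 1 was their lowest library in 21.0%. Unlike the rule for the members, the name rule for this mitochondrial list kept names with a pseudogene suffix. It thus took in the processed pseudogenes Mrpl23-ps1, Mrpl48-ps and Mrps36-ps1. Of these, Mrpl23-ps1 and Mrps36-ps1 were higher in every knockout library. The 30 assembly chaperones and 5S particle factors had a median of 0.17 and 5 higher at an unadjusted p under 0.05, led in level by Aamp (19704 and 13778 against 15341, 17876 and 20134) and Nop53 (11294 and 10373 against 17319, 13780 and 19315). The 14 tested snoRNA host genes had a median of 0.22 and 1 gene each way at an unadjusted p under 0.05, with Gas5 at 12578 and 22867 against 28233, 18031 and 17612 and Zfas1 at 2967 and 4647 against 5626, 3738 and 4407.

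The 33 genes that control TOP translation and ribosomal protein synthesis, among them mTOR subunits, Larp1, Myc and ETS factors, had a median of -0.20, with 5 (15.2%) higher in every knockout library and 8 (24.2%) lower, near the 16.7% and 19.3% of all tested genes. At an unadjusted p under 0.05 there were 3 each way, where 8.02% and 9.93% of all tested genes passed. Their members of highest mean were Maf1, a repressor of RNA polymerase III, and Rptor, a subunit of mTOR complex 1. Maf1 had 16799 and 10987 normalized counts in the control and 12656, 11963 and 13148 in the knockout. Rptor had 10622 and 8189 against 12795, 14840 and 15394, with the knockout higher in every library. Singled out after their values were seen, Myc, a driver of ribosome production, had 294 and 383 against 957, 795 and 1250 (log2 fold change 1.55, limma adjusted p = 0.0849), and the ETS factor gene Elk1 had 479 and 342 against 863, 802 and 937 (1.09, adjusted p = 0.157).

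**Figure D5:**
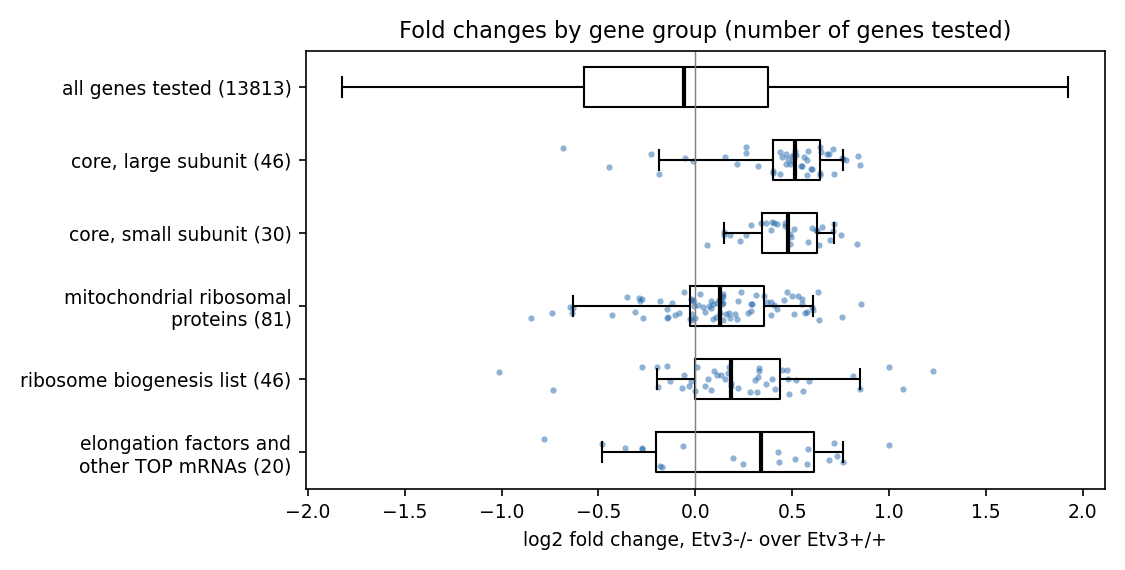
Log2 fold change of knockout over control (x axis) for all tested genes and 5 gene groups (y axis, number tested in parentheses), with boxes for the 25th to 75th percentiles, heavy lines for medians, whiskers at the 5th and 95th percentiles and points for genes. Core genes of both subunits centre near 0.50, above the mitochondrial ribosomal protein genes at 0.13 and the biogenesis list at 0.19.

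Markers of other cells were read beside these values. The summed level of 15 macrophage and monocyte markers was 38588 and 38145 in the control and 59434 to 79643 in the knockout. Of them limma called 3 higher (C1qa, C1qb and C1qc), where it called 0.876% of all tested genes higher. The 10 B cell markers summed to 2381 and 2090 against 4405 to 7079, with 0 called. At an unadjusted p under 0.05, 9 of the 15 macrophage and monocyte, 5 of the 10 B cell and 6 of the 14 dendritic cell markers were higher and 0 lower. Over all tested genes 8.02% were higher and 9.93% lower. T and NK cell markers summed to 8341 and 8888 against 1821 to 4996, with Ncr1 at 0, and the 10 genes of dividing cells to 13507 and 14211 against 8225 to 10314. Each knockout library was below both controls in 6 of 9 tested T and NK cell markers and in 4 of the 10 genes of dividing cells, where 19.3% of all tested genes were. Neutrophil markers (46765 and 52507 against 12595 to 72078) and mast cell and basophil markers (19792 and 11359 against 12110 to 18246, with Mcpt4 at 0) overlapped, as did plasma cell markers (33312 and 37198 against 31576 to 44405). The part of these cells in the ribosomal protein levels was not tested.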

How the data were processed

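Per the labels' protocols, cDNA was amplified by a SMART-Seq method from at most 60000 sorted cells of over 95% purity, so reads include PCR copies without molecular identifiers. The authors deposited normalized counts, a signal equal to reads over a factor for the library. The submitters' processing notes name STAR 2.7.3a, Subread 1.6.3 with featureCounts, Trimmomatic 0.36, DESeq2 1.26.0 and the build mm10. No source used here gives the annotation, strand setting or filters. Division by the step between low values gave numbers within 0.1 of whole reads for 100% of values, 42983550 to 68253936 reads per library.

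Groups came from the genotype label. limma 3.58.1 (R 4.3.3, eBayes with trend, two-sided) was fitted to log2(normalized count + 1) of 13813 genes that reached 10 in 2 or more libraries, with Benjamini-Hochberg adjustment, a threshold of 0.05 and 95% intervals. Fold changes on that scale understate changes of low genes. Exact permutation over the 10 splits of 2 against 3 libraries has a smallest p of 0.1. The procedure was tested on simulated data. The members and gene lists were chosen with earlier results of these data known. Named with values were the members past the threshold, the 8 highest and 5 lowest tested levels per kb, the 6 highest and 6 lowest log2 fold changes, the members listed by role, those not tested, Etv3, and in other lists the genes called or else the 2 of highest mean. Other names are marked as chosen after their values were seen. Some genes that this rule takes are not reported here.

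Alternatives were different scalings, pseudocounts and filters, a robust or trend-free limma, edgeR 4.0.16 and DESeq2 1.42.0 on recovered reads, a replicate block, and each library left out. Correction for GC content and length was tried alone and with the block. That correction with each library left out, the overlap of groups with each library left out, and leaving out the 2 libraries that followed GC content most were chosen after seeing the data. Length and GC content are medians over basic coding transcripts of GENCODE M21. Promoters are RefSeq's, on GRCm38.p6, without those of chromosome 18. Figures were drawn with matplotlib 3.10.9.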

Additional observations from a re-analysis of the deposited data

How the results depend on the processing

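With control replicate 1 at the low end of nearly every member, 2 control libraries limit every value here. Each library was left out, with or without correction for GC content and length. The medians were 0.060 (without control replicate 1, corrected) to 0.77 for the large and 0.015 to 0.86 for the small subunit. There were 0 called members, and 0 to 118 genes called higher and 0 to 54 lower of all tested. The overlap of groups was counted only without the correction. In those counts 41 to 77 members were higher and 2 to 17 lower in every knockout library. The highest counts of 77 higher and 17 lower came without control replicate 2 and without control replicate 1, where 26.6% of all genes were higher and 35.6% lower. A lone control library was assumed to vary like the others. Without both libraries of the strongest GC trend (control replicate 2 and knockout replicate 3), 78 members were higher in every knockout library, the small subunit median was 0.83, and 6 genes were called higher and 1 lower.

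Of all tested genes limma called 121 higher and 44 lower. DESeq2 called 636 and 533, with 7 large subunit members higher and 3 small subunit members higher and 1 lower. Correction for GC content and length gave 220 and 149, with 1 small subunit member lower. A filter of 50 in 3 libraries gave 183 and 92, a pseudocount of 5 gave 70 lower, and limma without trend gave 44 higher. The replicate block, by the shared numbers, gave medians of 0.46 and 0.43 for the large and small subunit, 0 called members and 118 genes lower, or 79 lower with correction for GC content and length. Deviations from the genotype mean in same-numbered libraries had correlations across genes of r = -0.03 and 0.04. The deviations of the controls mirror each other, so these values are not independent. They cannot tell whether the numbers mark pairs.

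The sign of 24 named members turned in a fit with a library left out, with or without correction for GC content and length. Both kinds of fit are pooled in the ranges given here, so some signs turned only with the correction. The log2 fold change ranged from -0.0035 to 0.92 for Rpl11, -0.90 to 0.23 for Rpl12, -0.28 to 0.81 for Rpl17, -0.024 to 0.67 for Rpl19, -1.22 to 0.54 for Rpl22l1 and -0.13 to 0.80 for Rpl26. It ranged from -0.32 to 0.80 for Rpl31, -0.50 to 0.13 for Rpl35, -0.33 to 0.64 for Rpl35a, -1.89 to 0.52 for Rpl39, -0.82 to 0.14 for Rpl5 and -0.20 to 0.72 for Rpl7. The ranges were -0.16 to 0.64 for Rpl7l1, -0.0033 to 0.73 for Rplp0, -0.069 to 0.79 for Rplp1, -0.24 to 0.85 for Rps10, -0.037 to 0.72 for Rps23, -0.43 to 0.78 for Rps24, -0.015 to 0.35 for Rps25, -0.31 to 0.82 for Rps27a, -0.39 to 1.07 for Rps4l, -0.089 to 0.91 for Rps4x, -0.035 to 0.63 for Rps6 and -0.52 to 0.75 for Rps7. Rpl35 was positive with TMM (0.050), quantile normalization (0.077), scaling without ribosomal protein and mitochondrial genes (0.030), edgeR (0.063) and DESeq2 (0.032). Rpl22l1 was positive with the replicate block (0.17), the correction for GC content and length (0.13) and both (0.52), where Rps7 was at -0.047. Without both libraries of the strongest GC trend, Rpl12 was at 0.30, Rpl22l1 at 1.00, Rpl39 at 0.75 and Rpl7l1 at -0.17. The causes were not tested.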
